A study of Mus musculus with 15 samples.

Results

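Vorinostat was added to an antibody against PD-1 in mice with IDH-mutant brain tumours, and the 4 tumour samples given both agents were compared here with the 4 given the antibody alone, out of 15 samples in the study. With both agents, genes of nerve cells, above all of striatal projection neurons, stood lower, and histone, DNA replication and ribosomal protein genes stood higher. With the mean of neuronal genes as a covariate, the striatal median log2 difference went from -1.25 to -0.71. The histone median went from 0.65 to 0.39, replication from 0.78 to 0.15, ribosomal from 0.46 to 0.05 and all genes from 0.13 to 0.05. Against placebo, the striatal and replication medians were 1.97 and -1.04 with the antibody alone and 0.78 and -0.22 with the combination. The histone medians were -0.28 and 0.24. Few single genes passed the test. Of 19390 genes tested, 3 were called higher and 0 lower than with the antibody alone, so most of what follows is differences that did not pass. Of the 3, Klk7 could enter the test only by being high in the combination.

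Nestin-TVA mice, whose nestin-expressing cells make the TVA virus receptor, received a mixture of 2 lines of DF-1 cells, a chicken fibroblast line, in the brain. One line expressed mutant IDH and the other PDGFB, a growth factor for glial progenitors. All groups share this IDH-mutant model. MRI on day 28 showed the tumours, treatment by intraperitoneal injection lasted 9 days, and tissue was taken on day 37. The antibody group received 1 mg of anti-PD1 in 100 µl, 2 times per week. The combination group received the same antibody and 1 mg of vorinostat in 100 µl, 1 time per day. The antibody was dissolved in saline and vorinostat in a solvent mixture that the placebo controls (n = 3) and the vorinostat group (n = 4) also received. The labels do not say that the antibody group was given the solvent, so vorinostat, its solvent and the daily injection cannot be told apart in this comparison. Age, sex and strain background are not given in the sources used here. Nor do the labels say that each sample is a separate animal, so p-values measure only the spread between these samples.

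Vorinostat inhibits histone deacetylases, enzymes that remove acetyl groups from histones and other proteins. Inhibitors of this kind are known to raise acetylation of chromatin, to induce the cell cycle inhibitor p21 and to slow division of cultured cells. PD-1 is an inhibitory receptor of T cells, and antibodies that block it are used to release T cells from that inhibition.

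Levels are TPM, a measure of a gene's share of a library's transcripts, as the authors deposited them. In this table a gene's length is its whole span with introns, so a gene with long introns has a low TPM. Reads recovered from the table came to between 81.1 M and 111.4 M in the combination libraries and between 87.4 M and 101.3 M in the antibody libraries. The 10 most abundant symbols held between 21.5% and 31.0% of the TPM in the combination and between 24.5% and 40.0% with the antibody, and pseudogenes between 34.9% and 42.1% and between 36.7% and 47.6%. Antibody library 2 had the highest share on both counts. The label calls the cells low-grade glioma cells. Their lineage markers Olig2 and Pdgfra were present in all 8 libraries, at 214 to 965 TPM and at 52.6 to 368 TPM, and genes of neurons, myelin, vessels and blood were measured beside them. Olig2 and Pdgfra were lowest in library 2 of both groups, at 214 and 69.4 TPM with the antibody and at 238 and 52.6 TPM with the combination. In bulk tissue, fewer cells of a type and less RNA per cell cannot be told apart.

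All differences are combination minus anti-PD1 on log2(TPM + 1), with the standard error (SE) of limma's fit, and each adjusted p is limma's after Benjamini-Hochberg adjustment over the 19390 genes that reached 1 TPM in 3 or more libraries. At an adjusted p under 0.05, 3 genes (0.0155% of those tested) were called, all higher. The unadjusted p was under 0.05 for 4558 genes (23.5%), 3426 higher and 1132 lower. The 3 are a protease gene and a pair of non-coding RNA genes, and they are named here after their values were seen. Leaving out antibody library 3 gave 671 calls, 532 higher and 139 lower, while leaving out combination library 2 or combination library 3 gave 0. Without antibody library 1 or antibody library 4 there was 1 call, not among these 3 genes, and without combination library 4 there were 7. Replicate numbers may pair the libraries, but the labels do not say so, and the pairing was read from these same values. All results with the block rest on that reading. A fit of all 15 libraries with that number as a block called 115 genes (0.593%), 88 higher (0.454%) and 27 lower (0.139%). With the 8 libraries alone and the block, 3905 of 18398 genes passed (21.2%), of which 2706 (14.7%) were higher and 1199 (6.52%) lower, and with the 8 alone and no block 0 passed.

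Klk7, which encodes a secreted serine protease known from the shedding of skin cells (chromosome 7, 43811294 to 43816359 in mm10, plus strand), stood at 1.37, 1.46, 1.36 and 0.690 TPM in the combination libraries. With the antibody it stood at 0.160 TPM in library 2 and was listed at 0 in libraries 1, 3 and 4. All 3 placebo and all 4 vorinostat libraries were listed at 0. It was therefore seen in 5 of the 15 libraries, and the groups did not overlap. Recovered reads were 94, 75, 89 and 44 in the combination and 10 in antibody library 2. The difference was 1.08 (SE 0.13, adjusted p = 0.0336). Klk7 passed the filter on low values only through the combination, so it could enter the test only by being high there.

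2700046G09Rik is annotated as a long non-coding RNA gene that starts from a bidirectional promoter (chromosome 19, 32389216 to 32391190, plus strand). Its start lies 498 bases from that of Sgms1, a sphingomyelin synthase gene on the opposite strand, and their spans overlap by 499 bases. Its levels were 8.89, 8.62, 7.41 and 7.72 TPM with the combination and 3.95, 5.16, 4.44 and 4.18 with the antibody. Every combination library lay above every antibody library, and the difference was 0.76 (SE 0.10, adjusted p = 0.0378). Placebo samples had 8.24 to 9.98 TPM and vorinostat samples 5.75 to 7.34. Sgms1 itself had a difference of -0.12 (SE 0.10) and its groups overlapped. Libraries were made without strand, so reads from the overlap could come from either gene.

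Gm17300, annotated as a long non-coding RNA gene (chromosome 4, 132351772 to 132353382, plus strand), had 28.6, 25, 29.1 and 29.5 TPM with the combination and 15.7, 15.9, 16.0 and 16.2 with the antibody. The antibody libraries were within 1 TPM of each other and all below the combination. The difference was 0.77 (SE 0.11, adjusted p = 0.0378), and placebo samples had 23.7 to 29.2 TPM. All 1611 bases of Gm17300 lie inside Rcc1 and Snhg3 on the other strand, and it overlaps the small nucleolar RNA genes Snora73a and Snora73b there, so its reads cannot be separated from theirs. Rcc1, which encodes an exchange factor of the small GTPase Ran, had a difference of 0.67 (SE 0.25, adjusted p = 0.176) and Snhg3 of 0.28 (SE 0.24, adjusted p = 0.454).

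The promoter of 2700046G09Rik is shown because that gene also gave a call when combination minus anti-PD1 was compared with vorinostat minus placebo, described further on. The window runs from 250 bases before to 50 bases after the gene's start, from RefSeq on GRCm38.p6, at chr19:32388966-32389265, plus strand. Capitals mark the 1 match to the letters CCAAT, which 41.1% of 27025 such promoters hold on either strand.
2700046G09Rik: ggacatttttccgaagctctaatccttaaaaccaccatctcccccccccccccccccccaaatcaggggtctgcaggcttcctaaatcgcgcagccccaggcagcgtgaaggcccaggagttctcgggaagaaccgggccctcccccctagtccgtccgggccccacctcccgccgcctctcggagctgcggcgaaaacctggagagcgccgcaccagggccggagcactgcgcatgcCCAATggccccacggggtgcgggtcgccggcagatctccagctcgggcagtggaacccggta

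Neat1, the long non-coding RNA that forms the core of nuclear paraspeckles (chromosome 19, 5824708 to 5845478), did not pass in the fit without the block and was picked out after its values were seen. It stood at 46.0, 47.0, 45.6 and 44.6 TPM with the antibody and at 83.8, 106, 161 and 108 TPM with the combination. The antibody libraries were again nearly level with each other and all below the combination. The difference was 1.26 (SE 0.20, adjusted p = 0.0560, and 0.0300 with the block).

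**Figure D1:**
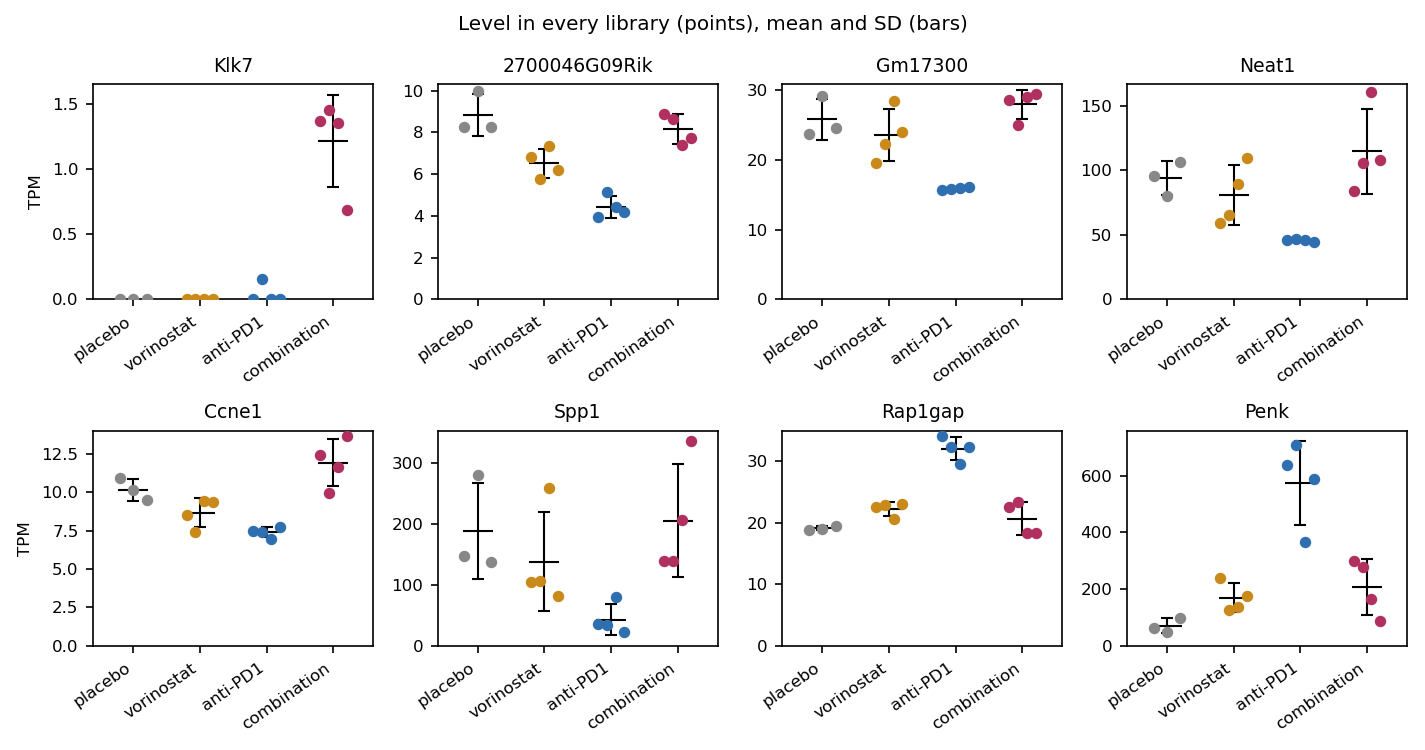
TPM (vertical axes, from 0) of 8 genes in every library of the placebo, vorinostat, anti-PD1 and combination groups, with the mean and SD of each group as bars where no library is at 0. Klk7 is near 0 outside the combination, while 2700046G09Rik, Gm17300, Neat1, Ccne1 and Spp1 are lowest and Rap1gap and Penk highest with anti-PD1 alone.

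Protein-coding genes were named by a rule that asked for a mean of at least 5 TPM in either group, no overlap between the 4 and 4 libraries and, as none passed the test, the 10 smallest p in each direction. Adjusted p ran from 0.0537 to 0.0861 for the higher genes and from 0.0537 to 0.123 for the lower genes. With the replicate number as a block, all 10 higher genes and 3 of the 10 lower genes passed, against 0.454% and 0.139% of all genes. Smallest p in the same libraries had chosen these genes, so nothing is read from those counts. Groups without overlap, higher in the combination, were found in 960 genes (4.95%), and lower in 325 genes (1.68%).

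The higher genes include a pair with roles in entry into S phase. Ccne1, which encodes cyclin E1, the cyclin that starts DNA replication with CDK2, stood at 12.4, 9.98, 11.7 and 13.7 TPM with the combination and at 7.48, 7.43, 6.97 and 7.76 with the antibody (difference 0.61, SE 0.10). Dut, which encodes the enzyme that removes dUTP and keeps uracil out of DNA, stood at 21.5 to 26.0 TPM against 14.4 to 17.3 (0.58, SE 0.09). In both, the lowest combination library was library 2, and it lay above every antibody library, as the rule asked.

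Wnt5a, a secreted signalling ligand of the non-canonical Wnt pathway, stood at 6.62, 6.64, 8.68 and 6.39 TPM with the combination against 3.96, 3.77, 4.63 and 3.43 (difference 0.70, SE 0.12). Pde6d encodes a carrier that moves prenylated proteins between membranes. Its levels were 9.90 to 11.7 TPM against 6.46 to 8.17 (0.54, SE 0.08). Parl, a rhomboid protease of the inner mitochondrial membrane, stood at 13.8 to 16.8 TPM against 8.46 to 11.4 (0.52, SE 0.10). Each of these genes kept its groups apart, as the rule asked, by margins of less than 3 TPM. On the other strand, Wnt5a shares 3319 bases with Gm2670 and Pde6d 1175 bases with Gm37152.

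Tmem74, a lysosomal membrane protein gene tied to autophagy, stood at 18.7 to 30.1 TPM against 10.7 to 17.8 (0.96, SE 0.16). Tmem203, a membrane protein gene, stood at 55.1 to 66.6 TPM against 34.7 to 44.0 (0.60, SE 0.09), but 584 of its bases overlap Ndor1 on the other strand. Nkapl, expressed in male germ cells of mice, stood at 7.31 to 9.34 TPM against 3.04 to 4.38 (0.93, SE 0.17). The uncharacterised genes Gm266 (13.7 to 22.0 TPM against 5.71 to 9.85) and Gm1673 (17.6 to 29.0 against 7.87 to 16.2) had differences of 1.37 (SE 0.23) and 1.13 (SE 0.21). Gm266 shares 1215 bases with Gm40578 on the same strand, so its reads could come from either gene. The library nearest the other group was combination library 4 for Gm266 and antibody library 3 for Gm1673.

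Among the lower genes, several act in striatal or other neuronal signalling. Penk, which encodes the precursor of the enkephalin opioid peptides (chromosome 4, 4133531 to 4138819), stood at 299, 279, 165 and 88.8 TPM with the combination and at 638, 708, 364 and 588 with the antibody. Every combination library was lower, and the difference was -1.57 (SE 0.37, adjusted p = 0.123). Mchr1, the receptor of melanin-concentrating hormone, stood at 18.2 to 30.3 TPM against 35.1 to 61.6 (-1.15, SE 0.23). Rap1gap, which encodes a GTPase-activating protein that switches off Rap1, stood at 22.6, 23.5, 18.4 and 18.3 TPM against 34.1, 32.3, 29.5 and 32.3 (-0.61, SE 0.09, adjusted p = 0.0537, and 0.0300 with the block). Penk, Mchr1 and Rap1gap each kept the groups apart, as the rule asked.

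Plcxd1, a phospholipase-like gene, stood at 8.09 to 15.1 TPM with the combination against 18.8 to 28.9 with the antibody (-1.12, SE 0.23, 0.0300 as adjusted p with the block). It shares 1979 bases with Gtpbp6 on the other strand. Lrrc26, an auxiliary subunit gene of BK potassium channels, stood at 1.40 to 2.82 TPM against 4.03 to 8.53 (-1.13, SE 0.25, 0.0426 as adjusted p with the block). Cracdl stood at 4.27 to 9.48 TPM against 9.74 to 22.1 (-1.25, SE 0.29), its groups only just apart.

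The remaining lower genes differed less. Tsc22d1, a leucine zipper regulator induced by TGF-beta, had a difference of -0.49 (SE 0.10). The zinc finger gene Zfp180 had -0.41 (SE 0.08), Elfn2, a synaptic adhesion gene, -0.38 (SE 0.09) and D430019H16Rik -0.50 (SE 0.12). Of the 10 lower genes, Rap1gap, Plcxd1, Elfn2, Cracdl and Penk overlap genes on the opposite strand.

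The whole table showed a shift. The median difference of all 19390 genes was 0.13, and it was 0.01 after scaling by the median of ratios, so a list's median is read beside 0.13, or beside 0.01 in scaled values. Pseudogenes, 2738 of those tested, had a median of 0.28 and protein-coding genes 0.12. Of all genes, 17.7% were higher and 5.84% lower at an unadjusted p under 0.05. For the lists, counts at that unadjusted level are given, since no member of any list passed the adjusted test without the block.

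Neuronal lists and the erythrocyte list had the lowest medians. Of 14 striatal projection neuron genes, 0 passed the adjusted test, 14 were lower at an unadjusted p under 0.05 and the median difference was -1.25 (-1.39 scaled). Drd1, the D1 dopamine receptor, stood at 87.7, 111, 48.2 and 20.5 TPM with the combination and at 144, 222, 121 and 122 with the antibody (-1.38, SE 0.41, adjusted p = 0.153). Tac1, the substance P precursor, stood at 32.6, 42.4, 18 and 6.16 TPM against 70.5, 102, 50.4 and 39.7 (-1.57, SE 0.50, adjusted p = 0.162). In both genes combination library 4 was lowest and antibody library 2 highest, and only for Drd1 did the groups not overlap. Rgs9, which speeds the shut-off of dopamine signals, had -0.80 (SE 0.25).

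Pan-neuronal genes had a median of -0.72, and all 14 differences were negative, 7 of them at an unadjusted p under 0.05. Grin1, the obligatory NMDA receptor subunit, stood at 24.1 to 39.9 TPM against 39.1 to 62.6 (-0.75, SE 0.24). Camk2b, a synaptic kinase subunit, stood at 47.4 to 57.2 against 58.1 to 67.8 (-0.27, SE 0.09), and the neuronal splicing factor Rbfox3 at 1.09 to 2.19 against 1.68 to 4.64 (-0.69, SE 0.25). Of these, Camk2b kept its groups apart.

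Genes of GABA synthesis and interneurons had a median of -0.81, with 3 of 9 lower at an unadjusted p under 0.05. Gad1, the main GABA-producing enzyme, stood at 21.8 to 50.2 TPM against 53.3 to 85.2 (-0.94, SE 0.27), while Slc32a1, the vesicular GABA transporter, had -1.36 (SE 0.49) and Gad2 -1.22 (SE 0.45). Secreted neuropeptide genes had a median of -0.67 with 3 of 10 lower, led by Penk, Pdyn, the dynorphin precursor, at -1.50 (SE 0.37), and Nts, the neurotensin precursor, at -1.94 (SE 0.56). Cortical excitatory neuron genes had a median of -0.45 with 2 of 10 lower and 1 higher. The lower ones were Camk2a at -1.23 (SE 0.48) and Cux2 at -0.48 (SE 0.19). The higher one was Rorb, and no difference in this list was above 0.30.

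The mean log2(TPM + 1) of the 14 pan-neuronal genes was 6.5, 6.77, 5.98 and 6.28 in antibody libraries 1 to 4 and 5.68, 6.13, 5.53 and 5.62 in the combination libraries. Library 2 was highest in both groups, and combination library 2 lay above antibody library 3. With this mean as a covariate, 0 genes were called and the striatal median was -0.71. The median of all genes was then 0.05, beside which the covariate medians of the lists are read. The covariate is itself part of what differs, and its part in the other results was not tested.

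**Figure D2:**
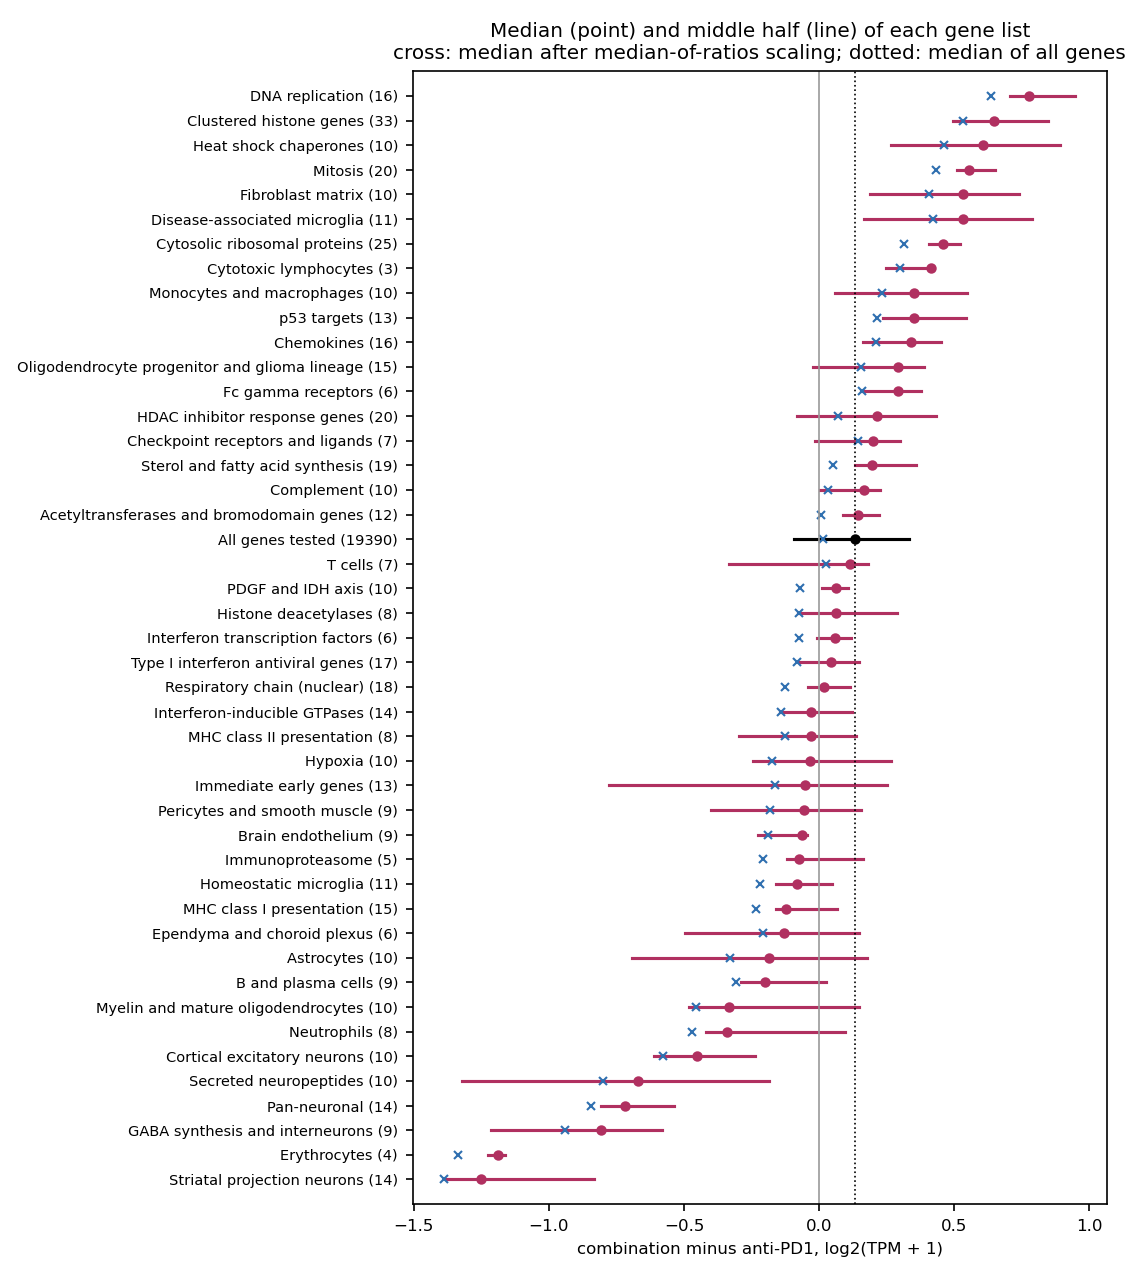
Median (point) and the range from the lower to the upper quartile (line) of combination minus anti-PD1 on log2(TPM + 1), for each of 44 gene lists and for all genes (black), with the number of genes tested. Crosses give the median after median-of-ratios scaling, and DNA replication at 0.78 and striatal projection neurons at -1.25 lie at the ends.

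Histone genes of the clusters stood higher. These genes supply histones during S phase, and their mRNAs are known to end in a stem-loop in place of a poly(A) tail. The labels do not say how RNA was selected. Of 33 measured, 32 differences were positive, 23 were higher at an unadjusted p under 0.05 and none lower, with a median of 0.65 (0.53 scaled, and 0.39 with the neuronal covariate). H4c12 stood at 36.4, 53.3, 64.5 and 56.3 TPM with the combination and at 28.3, 23.6, 34.3 and 26.7 with the antibody (0.86, SE 0.19, adjusted p = 0.121, and 0.0310 with the block). H2ac12 stood at 2.55, 2.92, 6.88 and 3.34 TPM against 1.15, 0.599, 2.52 and 1.30 (1.02, SE 0.29, adjusted p = 0.149, and 0.0300 with the block). All 4 combination libraries lay above all 4 antibody libraries in both genes, for H2ac12 narrowly. With the block, H1f2, a linker histone gene (1.05, SE 0.30), and H2bc12 (0.49, SE 0.17) also passed, at adjusted p of 0.0426 and 0.0475. The other members of smallest p were H4c11 at 0.99 (SE 0.26) and H2bc11 at 0.56 (SE 0.16). Many clustered histone genes share nearly the same sequence, so the division of reads among them is uncertain.

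Promoters of a pair of these genes are shown because both genes passed with the block. The sequences are from RefSeq on GRCm38.p6, over the same window around the start, H4c12 at chr13:21750504-21750803 and H2ac12 at chr13:22035594-22035893, both on the minus strand and printed 5′ to 3′ along the gene. Capitals mark the CCAAT box (letters CCAAT), the TATA box (letters TATAAA) and the octamer (letters ATTTGCAT), each searched on both strands.
H4c12: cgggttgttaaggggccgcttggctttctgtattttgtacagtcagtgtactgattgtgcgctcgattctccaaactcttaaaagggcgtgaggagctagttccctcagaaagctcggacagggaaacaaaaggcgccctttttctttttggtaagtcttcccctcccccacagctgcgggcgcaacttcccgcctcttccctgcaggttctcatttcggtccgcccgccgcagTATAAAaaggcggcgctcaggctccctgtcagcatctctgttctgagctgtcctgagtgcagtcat
H2ac12: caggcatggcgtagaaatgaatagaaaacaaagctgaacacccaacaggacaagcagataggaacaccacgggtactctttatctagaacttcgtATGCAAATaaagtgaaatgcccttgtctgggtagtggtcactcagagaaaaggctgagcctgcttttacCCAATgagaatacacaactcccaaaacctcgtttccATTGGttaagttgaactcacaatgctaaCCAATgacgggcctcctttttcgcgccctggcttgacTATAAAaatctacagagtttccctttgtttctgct
H4c12 has 1 TATAAA and no match to CCAAT or the octamer, and H2ac12 has 3 matches to CCAAT, 1 to TATAAA and 1 to the octamer. The window of H2ac12 shares 277 bases with that of H2bc12, which lies head to head with it on the plus strand. Of the 37 clustered histone genes listed, 34 had a promoter in the table. CCAAT was in 29 of 34 (85.3%), against 41.1% of all 27025 promoters, TATAAA in 20 (58.8%, against 15.7%) and ATTTGCAT in 9 (26.5%, against 1.97%). The octamer was in 5 of 7 H2B promoters (71.4%) and in 4 of the other 27 (14.8%). These are matches of letters in a window.

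DNA replication genes had the highest median, 0.78 (0.64 scaled, and 0.15 with the neuronal covariate), with 16 of 16 differences positive and 8 higher at an unadjusted p under 0.05. Beside Ccne1, the members of smallest p were Ccne2, which encodes cyclin E2, at 11.5 to 16.2 TPM against 8.5 to 11.8 (0.44, SE 0.13), Pcna, the sliding clamp of DNA polymerases, at 189 to 380 against 109 to 223 (0.75, SE 0.26), and Mcm4, a subunit of the replicative helicase, at 21.0 to 68.2 against 11.3 to 34.1 (0.95, SE 0.37). In Pcna and Mcm4 library 2 was the lowest of both groups, and the groups overlapped through it. Of 12 replication genes with a promoter in the table, 6 held at least 1 of the E2F-type letters TTTCCCGC, TTTCGCGC, TTTGCCGC or TTTGGCGC, against 2.60% of all promoters.

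Mitosis genes did not show counts of that kind. Their median was 0.55 with 20 of 20 positive, but 1 of 20 was higher at an unadjusted p under 0.05, and with the neuronal covariate the median turned to -0.30. Nek2, a centrosome kinase, stood at 16.1, 5.77, 20.8 and 15.4 TPM against 8.76, 3.63, 9.91 and 7.62 (0.82, SE 0.37), and Aurka had 0.70 (SE 0.44). Mki67, the proliferation marker, stood at 62.1, 8.19, 90.1 and 51.3 TPM against 36.9, 13.3, 42.3 and 30.7 (0.47, SE 0.61, adjusted p = 0.621). Library 2 was lowest in both groups for these genes. The Olig2 difference, 0.37 with all libraries, was -0.03 without antibody library 2 and 0.83 without combination library 2.

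The list of genes induced by p53 had a median of 0.35 (0.21 scaled, and 0.03 with the neuronal covariate) and 4 of 13 higher at an unadjusted p under 0.05. Phlda3, an inhibitor of Akt signalling, stood at 70.4, 72.6, 110 and 91.1 TPM against 37.1, 33.4, 65.6 and 35.4 (1.02, SE 0.24, adjusted p = 0.123, and 0.0428 with the block). Its groups did not overlap. Ccng1 had 0.41 (SE 0.14), the cell death genes Bax 0.73 (SE 0.31) and Pmaip1 0.54 (SE 0.23). Cdkn1a, which encodes p21 and is the gene best known for its response to deacetylase inhibitors, stood at 109, 40.1, 103 and 134 TPM against 94.8, 25.4, 79.6 and 138 (0.29, SE 0.50, adjusted p = 0.720).

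Other genes known to respond to deacetylase inhibitors had a median of 0.21 (0.07 scaled), with 5 of 20 higher at an unadjusted p under 0.05. The list was mixed, with 13 positive and 7 negative differences, from -1.05 to 0.95. H1f0, the linker histone of non-dividing cells, stood at 977, 690, 976 and 1082 TPM against 664, 381, 794 and 618 (0.63, SE 0.22, adjusted p = 0.170), and its groups overlapped. Klf2 had 0.43 (SE 0.16) and Tgm2 0.44 (SE 0.17). The 8 deacetylase genes measured had a median of 0.06 (-0.08 scaled), with 4 positive and 4 negative differences. Hdac1, at 11.8 to 23.6 TPM against 6.2 to 16.7 (0.66, SE 0.28), and Hdac2, at 42.4 to 69.8 against 27.3 to 52.5 (0.57, SE 0.21), were higher at an unadjusted p under 0.05. Hdac3 had 0.20 (SE 0.10), and Hdac11 -0.57 (SE 0.40).

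Ribosomal protein genes had a median of 0.46 (0.31 scaled), 25 of 25 positive and 13 higher at an unadjusted p under 0.05. Rpl13 stood at 1338, 1562, 2024 and 1808 TPM against 652, 764, 1526 and 672 (0.97, SE 0.29, adjusted p = 0.150), where antibody library 3 overlapped the combination. Rps2 had 0.46 (SE 0.16). Such genes have many processed copies in the genome, so their reads are uncertain. With the neuronal mean as a covariate the list's median was 0.05, and that of all genes was also 0.05. Heat shock chaperone genes had a median of 0.61 with 3 of 10 higher, led by the mitochondrial partners Hspd1 (0.73, SE 0.19) and Hspe1 (0.69, SE 0.18).

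**Figure D3:**
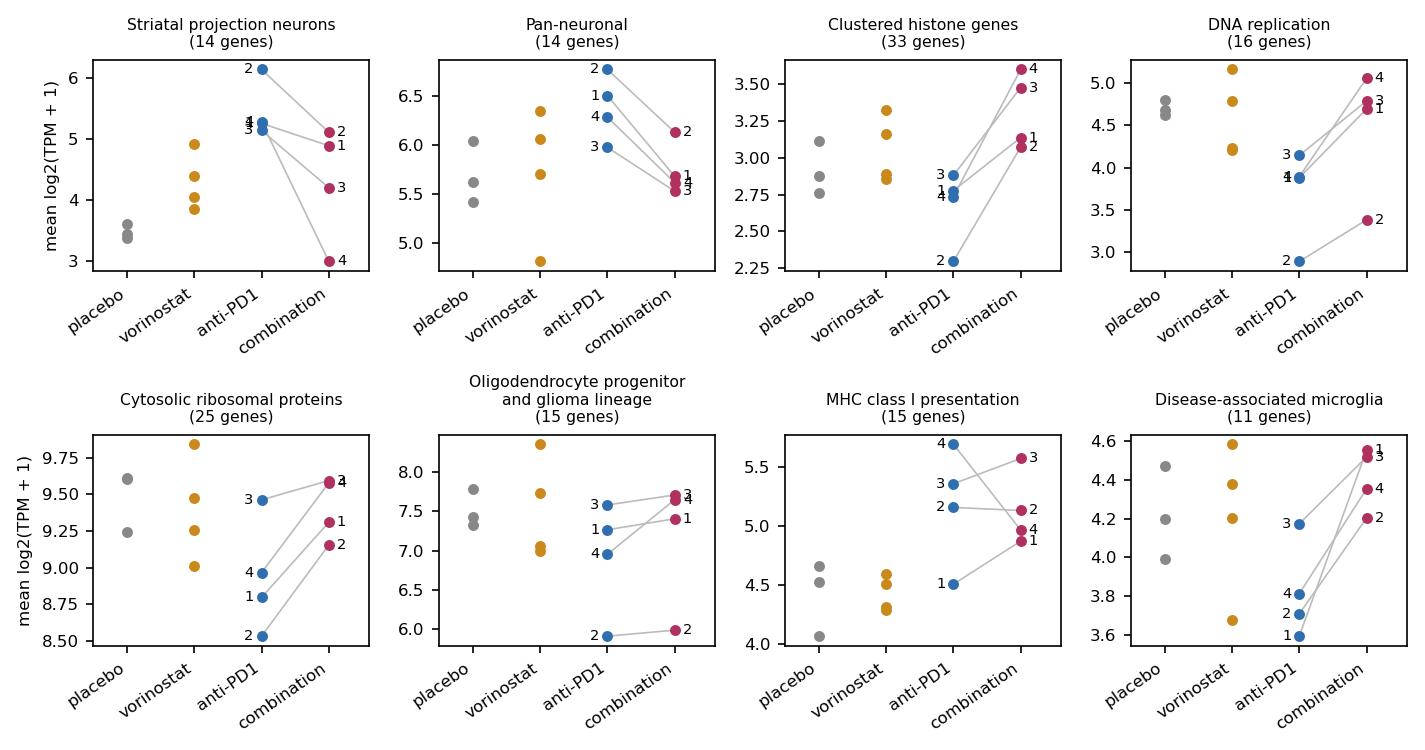
Mean log2(TPM + 1) of 8 gene lists in every library of the placebo, vorinostat, anti-PD1 and combination groups. Grey lines join antibody and combination libraries of the same replicate number (printed beside the points). Each numbered pair steps down in both neuronal lists and up in the histone, replication and ribosomal lists. In the lineage list, library 2 is lowest in the antibody and combination groups, but not in the placebo or vorinostat group.

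Over the lists of disease-associated microglia, monocytes and macrophages, complement and Fc receptors, 7 of 37 genes (18.9%) were higher at an unadjusted p under 0.05, near the 17.7% of all genes. The largest difference among them was that of Spp1. This gene encodes osteopontin, secreted by activated microglia and macrophages (chromosome 5, 104435118 to 104441050), and stood at 139, 139, 206 and 336 TPM with the combination and at 34.9, 33.3, 80.1 and 22.3 TPM with the antibody. All 4 combination libraries lay above all 4 antibody libraries, and the difference was 2.30 (SE 0.44, adjusted p = 0.0861, and 0.0486 with the block). The 11 genes of disease-associated microglia had a median of 0.53 (0.11 with the neuronal covariate), and 3 were higher at an unadjusted p under 0.05, Spp1, the galectin gene Lgals3 (0.86, SE 0.30) and the protease inhibitor gene Cst7 (0.83, SE 0.35). Homeostatic microglia genes had a median of -0.08 with 0 of 11 past that level in either direction. Monocyte and macrophage genes had 0.35 (0.16 with the covariate), with Cd68, a lysosomal marker of macrophages, at 0.58 (SE 0.16) and Itgam at 0.41 (SE 0.18). C3ar1 among complement genes had 0.41 (SE 0.13) and Fcer1g among Fc receptor genes 0.39 (SE 0.17). Among genes that passed with the block was also Lilrb4a, an inhibitory receptor gene of myeloid cells with a near-identical neighbour, at 12.4 to 17.7 TPM against 5.76 to 11.2 (0.87, SE 0.22).

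None of the genes of antigen presentation, interferon response or T cells described here passed, with or without the block over 15 libraries. MHC class I genes had a median of -0.12 (-0.23 scaled), with 2 of 15 higher and none lower at an unadjusted p under 0.05. H2-K1 stood at 102, 134, 215 and 109 TPM against 69.8, 162, 146 and 250 (-0.09, SE 0.37, adjusted p = 0.884), a spread within each group wider than the difference between them. The 2 were Pdia3 (0.55, SE 0.23) and Erap1 (0.33, SE 0.15), which help to load and trim peptides. MHC class II genes had -0.03 and interferon-inducible GTPases -0.03, with Gbp7 at 0.28 (SE 0.28) and Igtp at -0.37 (SE 0.50). Type I interferon antiviral genes had 0.04, with Ddx58 at 0.32 (SE 0.24) and Ifit2 at 0.42 (SE 0.34). None of these 3 lists had a member past an unadjusted p of 0.05.

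Of 16 T cell genes, 7 passed the filter, with a median of 0.11. Cd8a stood at 0.668, 2.77, 2.86 and 0.567 TPM with the combination and at 0.856, 0.943, 1.20 and 2.14 with the antibody (0.15, SE 0.29, adjusted p = 0.750). Cd4, also expressed by some myeloid cells, stood at 4.07, 2.81, 1.73 and 0.297 TPM against 3.27, 8.52, 2.86 and 6.06 (-1.0, SE 0.39, adjusted p = 0.182), and Thy1, abundant in neurons as well, had -0.65 (SE 0.37). Of 11 cytotoxic genes 3 passed the filter. Gzmb, the killer cell protease granzyme B, stood at 0.970, 1.98, 1.24 and 0.604 TPM against 1.22, 0.425, 1.57 and 1.10 (0.08, SE 0.20), Ccl5 had 0.41 (SE 0.24) and Nkg7 0.42 (SE 0.44). Ifng lay under the filter, at most 0.350 TPM in any library. Pdcd1, the gene of the antibody's target, had 0.20 (SE 0.19) and Cd274, its ligand PD-L1, 0.06 (SE 0.25). For Cd8a, Gzmb, Pdcd1 and Cd274 the difference was about as large as its standard error or smaller, so a change of that size was not detectable.

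Chemokine genes had a median of 0.34 with 2 of 16 higher and 2 lower at an unadjusted p under 0.05. Ccl3 (1.24, SE 0.47) and Ccl4 (1.03, SE 0.41), made by microglia and macrophages, were the higher ones. Cx3cl1, which neurons display on their surface (-0.67, SE 0.24), and the B cell attractant Cxcl13 (-0.61, SE 0.19) were the lower ones. B and plasma cell genes had a median of -0.20, with 6 of 9 differences negative and 3 positive, and Ighm at -0.86 (SE 0.36).

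Stromal and other cell markers are given as they stood. Fibroblast matrix genes had a median of 0.53, with Dcn (0.62, SE 0.23), Col3a1 (0.91, SE 0.37) and Postn (1.07, SE 0.44) higher and Col6a1 (-0.79, SE 0.30) lower at an unadjusted p under 0.05. Astrocyte genes had -0.19, with 6 of 10 differences negative and 4 positive, up to 0.44. Their members of smallest p were Slc1a2 at -0.61 (SE 0.25) and Aldoc at -0.77 (SE 0.37). Myelin genes had -0.33, with 7 of 10 differences negative, although the members of smallest p were positive, Cldn11 at 0.57 (SE 0.19) and Ugt8a at 0.44 (SE 0.20). Pericyte and smooth muscle genes had -0.05, with 5 of 9 differences negative and 4 positive, up to 0.28. Their members of smallest p were Vtn at -0.81 (SE 0.29) and Higd1b at -0.40 (SE 0.16). Globin and other erythrocyte genes had a median of -1.19, with none of 4 past an unadjusted p of 0.05. The lineage list of oligodendrocyte progenitors and glioma had 0.29 (0.16 scaled) and -0.58 with the neuronal covariate. Of its 15 differences 11 were positive and 4 negative, with Sox11 at 0.90 (SE 0.44) and Nes at 1.25 (SE 0.72). The part of these cell markers in the other results was not tested.

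In the blocked fit of all 15 libraries 32 higher and 6 lower genes met the rule, which names the 15 largest differences and all 6. Those not yet named are Ankrd34c, an ankyrin repeat gene, at 13.3 to 42.9 TPM against 3.92 to 11.2 (2.04, SE 0.39 in that fit, adjusted p = 0.0493), H2ax, the histone variant phosphorylated at DNA breaks (1.04, adjusted p = 0.0412), and Edn1, the vessel-constricting peptide endothelin (1.03, adjusted p = 0.0456). Gpx3, a secreted peroxidase (1.00, adjusted p = 0.0426), Chl1, a neural adhesion molecule (0.82, adjusted p = 0.0475), Zfp580 (0.78, adjusted p = 0.0294) and Csrp2 (0.78, adjusted p = 0.0493) were higher too. Lower were Ppp1r16b (-0.81, adjusted p = 0.0462), Ppp1r3c, a glycogen-targeting phosphatase subunit (-0.59, adjusted p = 0.0428), and Dagla, the enzyme that makes the endocannabinoid 2-AG (-0.57, adjusted p = 0.0462). None of these 10 genes passed without the block, and all kept their groups apart, as the rule asked.

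The difference between combination minus anti-PD1 and vorinostat minus placebo was taken from the fit without the block. Placebo and vorinostat samples both received the solvent, and the labels do not say that the antibody group did. This contrast may therefore hold the solvent and the daily injection as well as vorinostat. In vorinostat against placebo, 1 gene (0.00516%) was called and 488 genes (2.52%) had an unadjusted p under 0.05. For the difference of differences 2 genes (0.0103%) were called by limma at an adjusted p under 0.05, 2700046G09Rik and Gm38061, and 3182 (16.4%) had an unadjusted p under 0.05. For 2700046G09Rik, vorinostat minus placebo was -0.39 and combination minus anti-PD1 0.76, and the difference of differences was 1.14 (SE 0.15, adjusted p = 0.0348, and 0.0794 with the block). Gm38061, a gene model that reached 1 TPM in the placebo samples alone, is not described further.

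Of the 10 higher genes, all 10 had a positive difference of differences, and 9 had an unadjusted p under 0.05, while of the 10 lower genes all 10 were negative and 10 had one. None passed the adjusted test (adjusted p of 0.124 to 0.351). Wnt5a had -0.41 (SE 0.13) without the antibody against 0.70 with it, Ccne1 had -0.21 (SE 0.11) against 0.61, and Penk had 1.25 (SE 0.40) against -1.57. Nkapl had the same sign in both, 0.49 (SE 0.19) and 0.93. Vorinostat minus placebo had a median of -0.08 over the higher genes and 0.20 over the lower genes. As the members were chosen for combination minus anti-PD1, these signs are not independent of that choice.

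The levels in placebo samples stand beside these. The antibody group's mean lay outside the placebo range, on the far side from the combination, in 9 of the 10 higher and 10 of the 10 lower genes. The same held for 69% of all genes with a positive difference and 58.3% of those with a negative one, and, among protein-coding genes that met the rule on level and overlap, for 411 of 461 (89.2%) and 142 of 151 (94%), so the named genes are close to those they were drawn from. The combination's mean lay above the placebo range in 9 of the higher genes, against 128 of the 461 (27.8%), and below it in 1 of the lower, against 15 of the 151 (9.93%). As smallest p chose the genes, nothing is read from these counts. Penk averaged 70.9 ± 25.7 TPM in placebo (SD, n = 3), 169 ± 50.7 with vorinostat (n = 4), 575 ± 149 with the antibody (n = 4) and 208 ± 98.8 with the combination (n = 4). Spp1 averaged 188 ± 79.2, 138 ± 81.4, 42.7 ± 25.6 and 205 ± 92.9 TPM in the same order. The striatal list had a median of 1.97 in anti-PD1 minus placebo, 0.83 in vorinostat minus placebo and 0.78 in combination minus placebo, and the replication list -1.04, -0.13 and -0.22. The histone list had -0.28, 0.08 and 0.24, and the MHC class I list 0.73, 0.03 and 0.60. These comparisons share the antibody or placebo samples with each other, so their values are set side by side only.

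**Figure D4:**
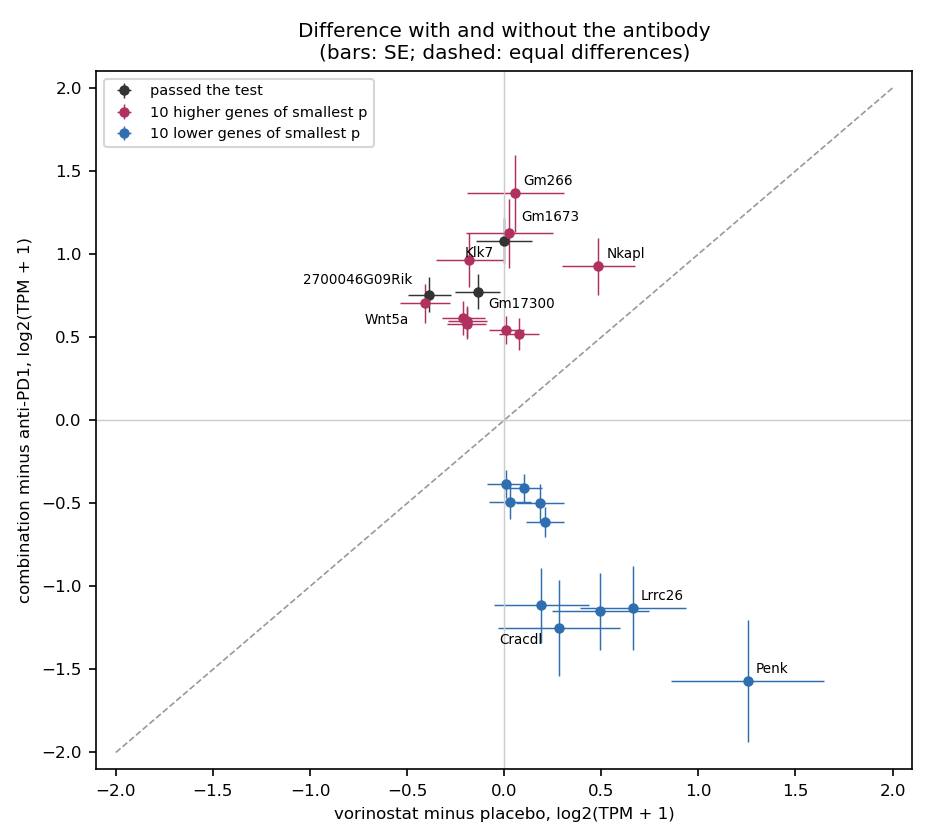
Vorinostat minus placebo (horizontal) against combination minus anti-PD1 (vertical) on log2(TPM + 1) with standard errors, for the 3 called genes and the 10 higher and 10 lower named genes; the dashed line marks equal differences. Higher genes lie between -0.41 and 0.49 and lower genes between 0.01 and 1.25 on the horizontal axis, and all 20 named genes lie off the dashed line on the side of their own direction.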

How the data were processed

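RNA of 15 tumour samples was sequenced from libraries made with a kit that does not mark strand, per the labels' protocols. Per the submitters' processing notes, the tools were FastQC, HISAT2, StringTie and DESeq2, with no versions, on build mm10. The authors deposited 1 table of TPM values for 38172 gene symbols, whose label holds the word "adj" with no explanation. Of the symbols found in the annotation, 1 lay on a sex or mitochondrial chromosome, and it was matched only through a synonym. Of 24904 genes with several exons, 98.5% gave whole reads, within 0.01 reads, when TPM was multiplied by the gene span in GENCODE vM21, in which 36884 symbols (96.6%) were found.

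Deposited TPM were put on a log2 scale with a pseudocount of 1, and genes that reached 1 TPM in 3 or more libraries were kept. limma 3.58.1 in R 4.3.3 (lmFit, contrasts.fit, eBayes with a trend) was run on all 15 libraries with 1 mean per group, Benjamini-Hochberg adjustment and a threshold of 0.05, and was tested on simulated data. Alternatives were a pseudocount of 0.1, other filters, the 8 libraries alone, median-of-ratios scaling, the neuronal mean as a covariate, the replicate number as a block, leaving out each library and, added after seeing the data, voom on recovered reads.

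Whether replicate numbers pair the libraries is not in the labels. Deviations from the group means of same-numbered anti-PD1 and combination libraries had correlations of 0.20, 0.64, 0.43 and 0.29, so the pairing comes from the data, and combination library 4 had 0.30 with antibody library 3. Placebo and vorinostat libraries, which the block over 15 libraries also joins by number, were not examined in this way. The protein-coding genes named had at least 5 mean TPM in either group, no overlap and the largest differences among those passing, up to 15, or else the 10 smallest p. Of each list described, 2 to 4 members of smallest p were named, with 14 genes fixed by name. The comparison, the lists and the genes were chosen with earlier results of these data known.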

Additional observations from a re-analysis of the deposited data

Results flagged for a closer look

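In groups of 4 libraries, a library was picked out where its gap to the nearest other, as a share of the group's range, was above Dixon's 95% critical value. Of 246 groups examined 13 met this, and chance gives about 1 in 20. With the antibody, the shares were 1.00 for Klk7 (library 2, highest), 0.850 for Gm1673, 0.846 for Phlda3 and 0.896 for Lgals3 (library 3, highest), 0.840 for Ppp1r16b (library 3, lowest) and 0.895 for Cldn11 (library 1, lowest). With the combination, they were 0.854 for Olig2, 0.875 for Pdgfra, 0.844 for Pcna and 0.890 for Rcc1 (library 2, lowest), 0.893 for Klk7 and 0.868 for Gm266 (library 4, lowest) and 0.875 for Wnt5a (library 3, highest). Antibody library 3 and combination library 2 thus account for 4 each of these 13, and leaving out antibody library 3 raised the calls from 3 to 671.

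The difference of differences for 2700046G09Rik was 1.14 on log2(TPM + 1) in limma's test (adjusted p = 0.0348). That call is lost with the replicate block (adjusted p = 0.0794). The contrast may hold the solvent and the daily injection as well as vorinostat. All 4 combination libraries lay above all 4 antibody libraries, and all 4 vorinostat libraries lay below all 3 placebo libraries.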

How the results depend on the processing

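The 3 calls became 0 with a pseudocount of 0.1, with the 8 libraries alone and with the neuronal mean as a covariate, 1 with voom on recovered reads, 2 with median-of-ratios scaling (Klk7 and a gene that was lower, with the other 2 at an adjusted p of 0.0981), 11 with a mean of at least 5 TPM, 21 with any gene above 0 in 3 libraries, and 0 to 671 when 1 library was left out (without combination library 1 there were 3, none of them among the original 3). The 1 call without antibody library 1 or antibody library 4 was also not among the original 3. With the replicate block the 3 calls became 115 over 15 libraries and 3905 over 8. The 2 calls of the difference of differences became 0 with the pseudocount of 0.1, the 5 TPM mean or the filter over the 8 libraries. They became 8 with any gene above 0 and 1 with the replicate block, median-of-ratios scaling, the covariate or voom. With 1 library left out there were 1 to 3. In the settings where each was tested, Klk7 passed in 10 of 15, 2700046G09Rik in 9 of 19 and Gm17300 in 7 of 19. Their adjusted p in limma were 0.0021 to 0.173, 0.0157 to 0.173 and 0.0151 to 0.172, and none of the 3 changed sign. Klk7 fell under the filter with the 5 TPM mean and without combination library 1, 2 or 3, so it was not tested there. As Klk7 entered the test only by being high in the combination, its count is not read as support.

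Of 44 lists, 11 had a median of opposite sign with the neuronal covariate, mitosis (-0.30), myelin (0.32) and the glioma lineage (-0.58) among them, and 5 with scaling, all within 0.13 of 0. Among single genes, signs turned only for those that had not passed. With the neuronal covariate the differences were 0.032 for Aldoc, 0.22 for Hdac11, 0.028 for Sgms1, 0.16 for Thy1, -0.11 for Aurka, -0.42 for Cdkn1a, -0.041 for Ddx58, -0.023 for Gbp7, -0.20 for Ifit2, -0.46 for Mki67, -0.19 for Nes, -0.58 for Olig2, -0.050 for Pdcd1, -0.97 for Pdgfra and -0.13 for Snhg3. Scaling gave -0.055 for Cd274 and -0.041 for Pdgfra. Voom gave -0.059 for Cd274, -0.061 for Cd8a, -0.042 for Gzmb and -0.080 for Pdgfra. With 1 library left out the ranges were -0.17 to 0.26 for Cd274, -0.059 to 0.37 for Cd8a, -0.20 to 0.66 for Cdkn1a, -0.094 to 0.22 for Gzmb, -0.43 to 0.18 for H2-K1, -0.87 to 0.0014 for Igtp, -0.026 to 0.83 for Olig2 and -0.39 to 0.76 for Pdgfra. The cause was not tested.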
